A study of Drosophila melanogaster with 3 samples.

Results

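The 3 genes described here encode the ecdysone receptor EcR, its dimer partner usp (ultraspiracle) and the coactivator tai (taiman), and they were chosen by name. Binding of the forkhead factor fkh at these genes was measured by chromatin immunoprecipitation with sequencing (ChIP-seq) in whole Drosophila melanogaster prepupae. The animals were of the strain fkh-GFP, a transgenic line in which fkh carries green fluorescent protein at its C terminus, from an insertion targeting fkh. The labels' description names an antibody against that protein for the precipitation, while another of their fields names fkh as its target. No control library is among the samples. There was 1 group of 3 biological replicates, males and females pooled, with no treatment and no other genotype, so conditions cannot be compared. The labels give the age as 24 days, which is longer than development to the prepupa takes. The members are the 35 peak summits of the authors' reproducible ("optimal") list that lay in the body of 1 of the 3 genes or within 5 kb of it, of 9531 summits in all. Of these, 18 were at EcR, 16 at tai and 1 at usp. EcR (FBgn0000546) spans 2R, 6087873 to 6169087, on the minus strand of the dm6 build. The gene usp (FBgn0003964) spans X, 2038798 to 2042311, also on the minus strand, and tai (FBgn0041092) spans 2L, 9166778 to 9250211, on the plus strand.

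EcR and usp are nuclear receptors that bind the steroid hormone 20-hydroxyecdysone as a dimer and switch on the genes of moulting and metamorphosis. EcR is made as the A, B1 and B2 isoforms, which share their DNA-binding and ligand-binding domains and differ at the N terminus, with A transcribed from promoters upstream of those of B1 and B2. The protein tai is a coactivator of the p160 family, which joins the hormone-bound receptor and also pairs with the juvenile hormone receptors. Pulses of the hormone drive the larva into the prepupa, and fkh is known in the salivary gland as a factor under ecdysone control. Chromatin came from whole animals, so none of the peaks can be placed in a tissue.

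The sequences under the strongest tai peaks are shown because they let the forkhead recognition word be read directly. The word searched was TNTTTNN, in which the N at the second and sixth positions is A or G and the last N is C or T. It was searched on both strands, and matches are in capitals, so that a match on the minus strand reads as its reverse complement. Each line holds a summit and the 50 bases to each side of it from the release 6 reference, 5′ to 3′ on the plus strand, for the 5 strongest tai summits whose window touches no annotated untranslated region. They are numbered from 5′ to 3′ among the 16 tai summits.
tai summit 15, chr2L:9205353-9205453, signal 790.5: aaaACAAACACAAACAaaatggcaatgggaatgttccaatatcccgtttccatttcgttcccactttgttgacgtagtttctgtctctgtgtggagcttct
tai summit 1, chr2L:9166535-9166635, signal 786.4: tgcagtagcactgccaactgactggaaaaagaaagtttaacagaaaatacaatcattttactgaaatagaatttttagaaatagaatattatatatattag
tai summit 13, chr2L:9190444-9190544, signal 574.7: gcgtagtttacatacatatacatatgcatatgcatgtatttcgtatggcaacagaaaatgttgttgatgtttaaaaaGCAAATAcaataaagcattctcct
tai summit 12, chr2L:9189447-9189547, signal 472.9: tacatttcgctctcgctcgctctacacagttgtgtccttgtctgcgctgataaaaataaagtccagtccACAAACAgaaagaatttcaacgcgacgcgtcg
tai summit 16, chr2L:9211479-9211579, signal 377.4: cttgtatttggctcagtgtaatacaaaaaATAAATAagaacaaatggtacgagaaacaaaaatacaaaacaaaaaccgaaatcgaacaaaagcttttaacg
Of these 5 windows, summit 15 held 2 overlapping matches, summits 12, 13 and 16 held 1 each, and the promoter summit 1 held none.

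All 3 genes had a peak, but EcR and tai had many and usp had 1 weak one. A summit in the body or within 5 kb was present at 56.6% of the 13945 protein-coding genes, with a median of 1 per gene. EcR, with 18, was at percentile 99.8 by number of summits, and only 23 protein-coding genes, EcR included, had as many. For tai, with 16, the percentile was 99.7 and 36 genes had as many. The gene usp was at percentile 43.4. Both EcR and tai are long genes, of 81.2 kb and 83.4 kb against 3.51 kb for usp. Among the 433 genes with 0.5 to 2 times the span of EcR the median was 3 summits and EcR was at percentile 95.2, and among the 411 such genes for tai the median was also 3 and tai was at percentile 92.9. By summits per kb of the gene with its flanks, EcR had 0.197 and tai 0.171, at percentiles 80.3 and 74.0, and usp had 0.0740, at percentile 50.7. EcR and tai were thus less far from other genes by density, or among genes of like span, than by number.

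**Figure D1:**
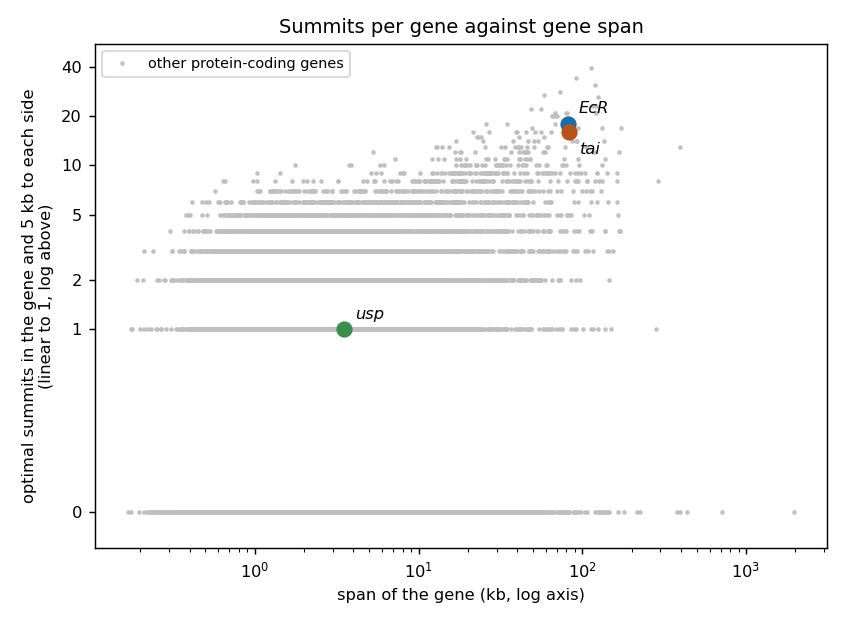
Number of optimal summits in each protein-coding gene and 5 kb to each side (vertical axis, linear to 1 and logarithmic above) against the span of the gene in kb (horizontal axis, logarithmic); each grey point is a gene. EcR with 18 and tai with 16 lie near the upper edge among genes of their span, and usp has 1.

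The signal used throughout is the authors' score for a peak in the list called on the 3 replicates together, and no source used here gives its scale. In the optimal list it ran from 160 to 6080.8 with a median of 294.1. EcR had the strongest peak of the 3 genes at 1183.3 and tai reached 790.5. The single usp peak had 180.9, below all but 2.99% of the best signals of genes with a peak, while the best peaks of EcR and tai were at percentiles 90.9 and 75.6 of the same genes. Within EcR, 9 of 18 summits were above the median of the list, and the lowest had 170.4. Within tai, 10 of 16 were above it, and the lowest had 169.8. Both genes thus held weak and strong peaks side by side.

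Every annotated start of EcR had a peak within 500 bp. Over the 3 genes this held for 7 of 8 distinct transcription start sites (TSSs), against 25.7% of all TSSs of protein-coding genes. The 8 TSSs are not independent, since EcR has neighbouring starts at 6131922 and 6131841 that were reached by the same summits. At the most upstream promoter, of the transcript EcR-RA at 6169087, which encodes the A isoform of 849 residues, summits lay 241 bp and 444 bp downstream of the start with signals of 235.0 and 376.0. Both overlapped the same replicate regions, which ranked 1695, 8747 and 7437 in replicates 1, 2 and 3. The replicate summits nearest to the one at 241 bp ranked 3009, 21635 and 7437, at 25, 22 and 170 bp from it. That of replicate 3 was also the nearest to the summit at 444 bp, 33 bp away. Replicate 2 did not place the summit at 241 bp among its 9531 strongest regions, and replicate 3 had no separate summit there. Replicate 1 thus ranked the A promoter far higher than the other replicates did.

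At the middle promoter, of EcR-RD and EcR-RE at 6157129, which encode the same A protein, a summit lay 371 bp downstream with a signal of 346.9. Its ranks of 3913, 4306 and 4356 in the 3 replicates were nearly level. A further summit 968 bp upstream, with 305.8, ranked 3536, 5565 and 10159, and it lay 500 bp from the start of the non-coding RNA gene lncRNA:CR43904. At the downstream promoters, which serve EcR-RB and EcR-RG (the B1 isoform of 878 residues) and EcR-RC (the B2 isoform of 669 residues), a summit 162 bp upstream of the start at 6131922 had a signal of 228.2 and ranks of 4660, 7300 and 11876. The summit in the first exon of these transcripts, 400 bp downstream of the start at 6131841, had 213.0 and ranks of 4971, 11449 and 7248. Each of these B promoter summits fell outside the 9531 strongest regions of 1 replicate, whereas the peak at the middle promoter was within them in all 3. Without replicate 1, neither B start kept a peak supported by both other replicates, and the number of EcR starts with a peak was 2, not 4.

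The strongest EcR peak lay near the B promoters but not at them. Its summit at 6133116 was 1194 bp upstream of the start at 6131922, inside intron 3 of EcR-RA, with a signal of 1183.3 and position 283 in the optimal list. It ranked 178, 371 and 783 in replicates 1, 2 and 3. A weaker summit at 6133373, with 492.5, shared its interval of 1407 bp. The replicate summits nearest to that weaker one ranked 1517, 2271 and 10260, so replicate 3 did not place it among its 9531 strongest regions. The second strongest peak of the gene, at 6120477, was 11364 bp downstream of the start of EcR-RG, in the intron that follows the B1-specific coding exon. Its signal was 816.8 and its ranks were 673, 846 and 1260, so it was strong in all 3 replicates.

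The other EcR summits were spread through the long introns. Of the 18, 13 were in introns away from the promoters, 5 were within 500 bp of a start of EcR, and none lay in coding sequence or in the flanks. Between the most upstream and the middle promoter there were 3 summits in 12.0 kb, between the middle and the B promoters 8 in 25.2 kb, and from there to the end of the gene 7 in 44.05 kb. Intron 3 of EcR-RA, of 56.8 kb, held 14 of the 18, and intron 2 of EcR-RB, of 27.8 kb, held 6 of these. The summits at 6151292, 6144949 and 6115494 had signals of 518.5, 424.1 and 426.9, and their ranks over the 3 replicates ran from 1727 to 2626, from 2528 to 3341 and from 2148 to 4275. The remaining 6, at 6141927, 6141145, 6117749, 6116747, 6115704 and 6112623, had signals from 170.4 to 265.2, all below the median of the list, and that at 6115704 shared the interval of 6115494.

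The last EcR summit lay 56464 bp from the most upstream start, and the 24.75 kb beyond it held none. That stretch contains 1955 of the 3278 coding bases of the gene, among them the exons common to the isoforms. The pooled list, which includes background regions, had 4 regions there, and the 9531 strongest regions of replicates 1, 2 and 3 included 1, 1 and 0. EcR also holds a series of tRNA genes in its introns. No summit lay in a tRNA gene, and the nearest was the summit at 6141927, with a signal of 234.0, which lay 238 bp from the start of tRNA:Arg-ACG-1-1.

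**Figure D2:**
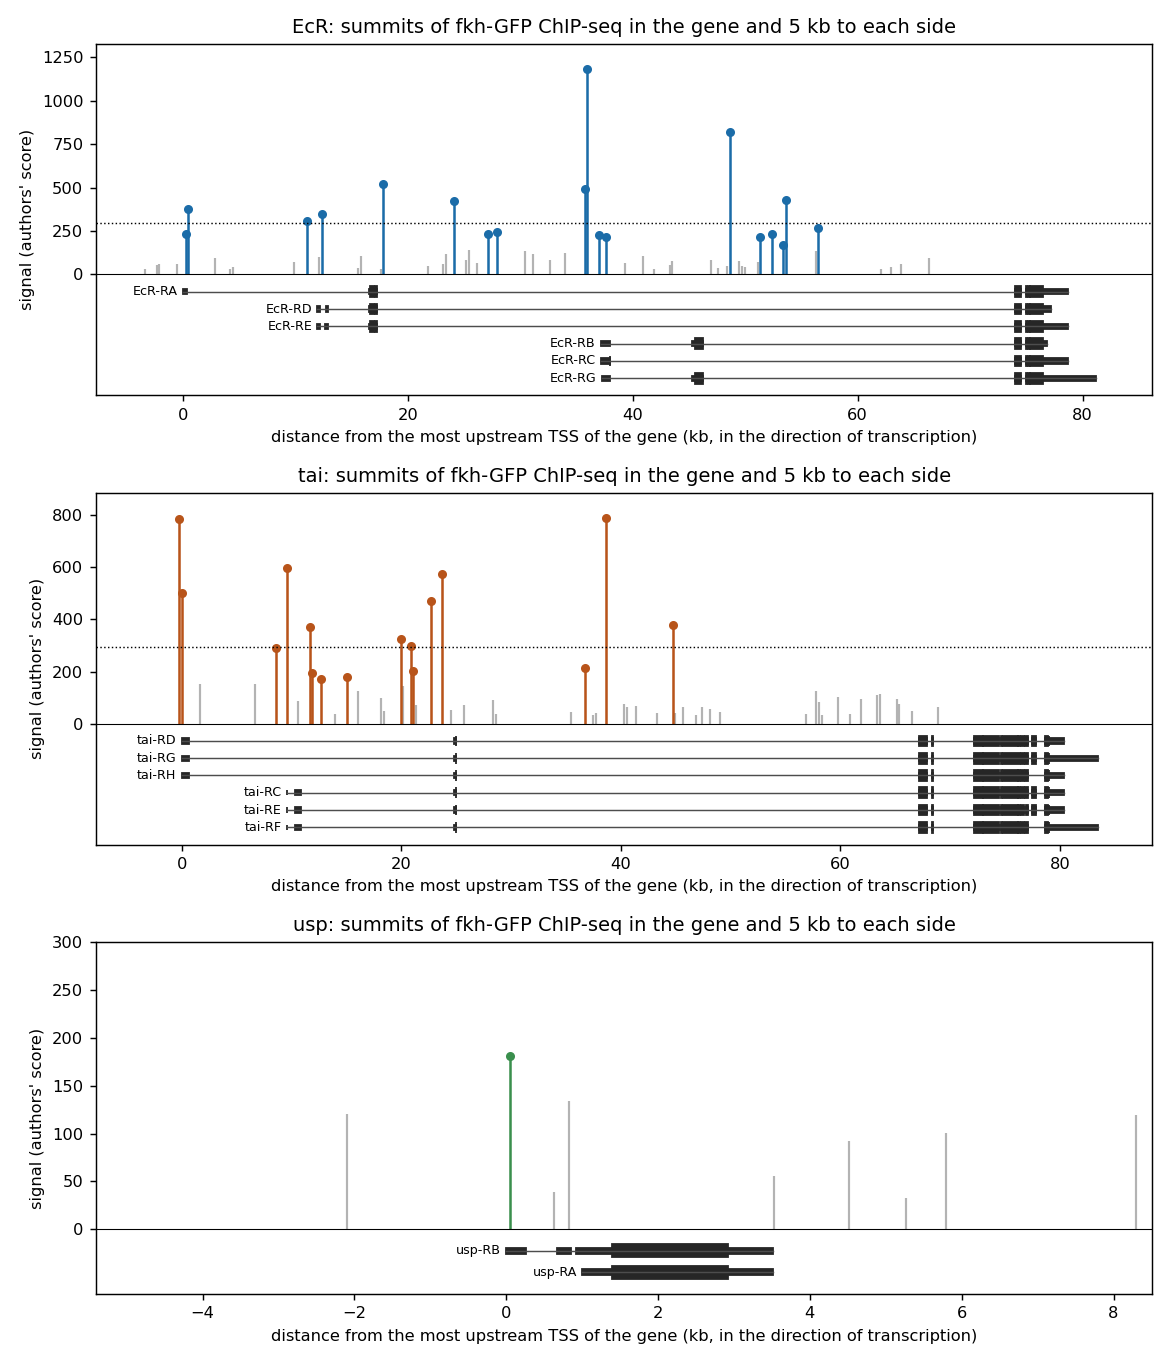
Signal of each summit (vertical axis, the authors' score) against its distance in kb from the most upstream start of the gene, in the direction of transcription, for EcR, tai and usp. Coloured points are optimal summits, grey bars are regions only in the pooled list, the dotted line (EcR and tai) is the median of the optimal list (294.1), and the transcripts are drawn below with coding exons as tall boxes. The strongest EcR summit stands just upstream of the B promoters, and the 3′ parts of EcR and tai hold no coloured point.

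The partner gene usp had a single summit, at 2042259, and it cannot be assigned to usp alone. It lay 52 bp downstream of the start of usp-RB at 2042311, in the first exon. The same base is the start of transcripts of Actn, which encodes the actin cross-linker alpha-actinin and runs across usp on the same strand. The start of CG4313, on the opposite strand, was 391 bp from the summit. The start of usp-RA at 2041312, 947 bp away, had no summit within 500 bp. Both transcripts encode the same protein of 508 residues. The peak had a signal of 180.9 and position 8453 of 9531, and the regions it overlapped ranked 7654, 9144 and 16371 in replicates 1, 2 and 3. The replicate summits nearest to it, at 78, 0 and 147 bp, ranked 26495, 9144 and 16371. Only in replicate 2 was that nearest summit among the 9531 strongest regions. The peak was thus weak in all 3 replicates, and by overlap it was beyond the 9531 strongest regions in replicate 3. It had no support in both remaining replicates when replicate 1 or replicate 2 was left out. The pooled list had 8 further regions within 5 kb of usp, with signals from 32.7 to 134.0, all below the lowest optimal peak.

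Both promoters of tai had strong peaks close to the start. At the upstream promoter, which serves tai-RD, tai-RG and tai-RH at 9166778, summits lay 193 bp upstream with a signal of 786.4 and 11 bp downstream with 500.5. They shared an interval, whose overlapping regions ranked 1359, 648 and 758 in replicates 1, 2 and 3. The upstream summit was also 71 bp from the start of CG9586, a gene transcribed in the opposite direction, so it cannot be assigned to tai alone. At the downstream promoter, which serves tai-RC, tai-RE and tai-RF at 9176358, the summit lay 31 bp from the start with 597.0. The best regions its interval overlapped ranked 1340, 1814 and 729, but the nearest summit of replicate 3, 16 bp away, ranked 2331. A weaker summit 978 bp upstream of this start had 290.4 and ranks of 4465, 9754 and 4148. In all 3 replicates, a region overlapping each of the 2 promoter intervals thus ranked 1814 or better.

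The intronic peaks of tai were concentrated in the intron before its first coding exon. Intron 2 of tai-RC, which ends at the exon with the start codon, is 14.0 kb long and held 9 summits, or 0.644 per kb. The next intron, of 42.2 kb, held 3, or 0.0711 per kb, close to the 0.0712 per kb of the whole genome. All transcripts of tai share the start codon 25007 bp from the upstream start, so 13 of the 16 summits lay upstream of it. The strongest in the first of these introns were at 9190494 with 574.7 and ranks of 1453, 1975 and 2434, and at 9189497 with 472.9 and ranks of 2113, 2905 and 2234. Those at 9178482, 9186732 and 9187693 had 370.8, 326.9 and 297.4. The weakest were at 9178699, 9179454, 9181882 and 9187892, with signals from 169.8 to 202.3. Those at 9179454 and 9181882 were each among the 9531 strongest regions of only 1 replicate.

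The strongest tai summit was 29045 bp from the nearest start of the gene. It lay at 9205403 in the longer intron, 38625 bp from the upstream start, with a signal of 790.5 and ranks of 784, 1141 and 810. Its neighbours in that intron were a weak summit at 9203545 with 212.5 and ranks of 8256, 7460 and 8014, and one at 9211529 with 377.4 and ranks of 3129, 2975 and 7831. After the last summit the remaining 38.7 kb of tai held none, and 6112 of its 6141 coding bases lie there. The pooled list had 19 regions in that stretch, and the 9531 strongest regions of replicates 1, 2 and 3 included 0, 1 and 0 of them. In tai as in EcR, the optimal summits stood at the promoters and in the long introns. The introns after intron 3 of EcR-RA were at most 403 bp long, and those after intron 3 of tai-RC at most 3694 bp. Each stretch without a summit includes the rest of that intron 3.

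The 3 replicates gave similar counts for EcR and tai when each list was used by itself. Among the 9531 strongest regions of replicates 1, 2 and 3, 21, 15 and 15 had their summit at EcR (17.0 ± 3.46, SD, n = 3), 15, 14 and 15 at tai (14.7 ± 0.577, SD, n = 3) and 1, 1 and 0 at usp. EcR exceeded tai in replicates 1 and 2 and equalled it in replicate 3, and their means differed by less than the SD of EcR. The best-ranked region of EcR was at 178, 371 and 783 and that of tai at 784, 648 and 729, so EcR had the stronger best region in replicates 1 and 2 and tai in replicate 3. The best region within 5 kb of usp ranked 7654, 9144 and 13743, behind both others in all 3 replicates. The order was not tested.

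Of the 35 optimal peaks, 25 (71.4%) met a region among the 9531 strongest of each of the 3 replicates, against 72.9% of all optimal peaks. This was 13 of 18 for EcR, 12 of 16 for tai and 0 of 1 for usp, and the other 5 at EcR were in 2 replicates. The optimal list was made from the same replicates, so this share describes the list and is not separate evidence. The nearest replicate summit was a median of 15 bp from the optimal one at EcR, 11 bp at tai and 78 bp at usp, with 14 bp over all optimal summits. The shares and distances at EcR and tai were thus near those of the whole list.

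**Figure D3:**
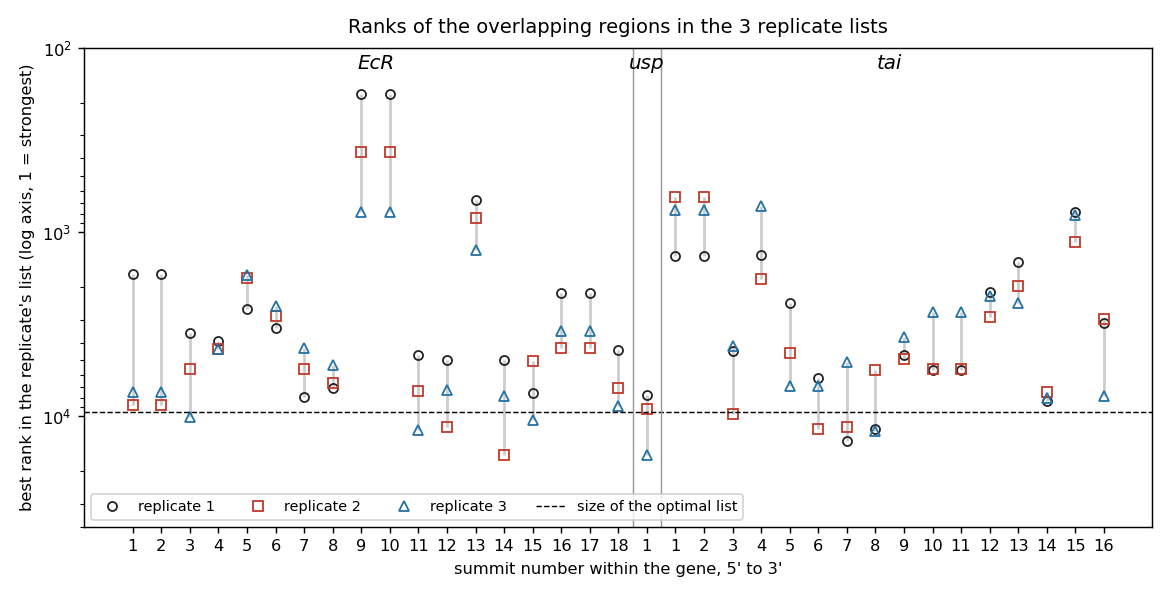
Best rank of the regions that each optimal peak overlaps in replicate 1 (circles), replicate 2 (squares) and replicate 3 (triangles), on a logarithmic axis with the strongest at the top; summits are numbered 5′ to 3′ within each gene, grey bars join the replicates and the dashed line is at 9531. Summits 9 and 10 of EcR share an interval and its ranks of 178, 371 and 783, and the usp summit straddles the line with 7654, 9144 and 16371.

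Peaks of the 3 genes lay at promoters less often, by count, than peaks in general. A start of EcR, usp or tai was within 500 bp of 9 of the 35. Counting starts of any annotated gene there were 11 (31.4%), against 44.4% of all optimal summits, and 26 were in introns away from the promoters of their own gene. All summits over EcR and tai were counted, genes of 81.2 kb and 83.4 kb with 4 and 2 distinct starts. The difference in share was not adjusted for span and was not tested.

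The forkhead word was present within 50 bp of 21 of the 35 summits (60.0%), against 58.5% of all optimal summits. It was found at 11 of 18 EcR summits, 10 of 16 tai summits and not at the usp summit. The strong promoter summits of tai differed in this: the ones at 9166585 and 9176389 had no match, while the one at 9166789 had 2. Of the 19 summits above the median signal of the list, 14 had the word, and of the 16 below it, 7 had. Over all optimal summits the word was at 64.2% of those above the median and 52.9% of the others, so a higher share among stronger peaks was also seen in the whole list. A match describes these letters in the window and is not evidence of a bound site. The narrower form TGTTTAN, with C or T as its last letter, was at 3 EcR summits and 1 tai summit, against 20.6% of all optimal summits.

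Words of nuclear receptors were few in number. Each of the 2 hexamers searched was at 2 of 18 EcR summits, a higher share than in the whole list, which was not tested. The hexamer AGGTCA was within 50 bp of EcR summits 6 and 14, at 6144949 and 6117749, and at no usp or tai summit, against 1.59% of all optimal summits. The variant AGTTCA was within 50 bp of EcR summits 9 and 10, at 6133373 and 6133116, its centre 44.5 bp and 6.5 bp from them, against 4.501% of all. The inverted repeat that forms the canonical ecdysone response element was in none of the 35 windows and in 0.0210% of all. Among the other words searched, the E-box CANNTG was at 10 EcR, 1 usp and 10 tai summits (43.3% of all), the GAGA word GAGAG at 6, 0 and 4 (16.9%), the CA repeat CACACA at 4, 0 and 4 (16.8%) and the GATA word, AGATAA and its variants with T first or G last, at 5, 0 and 2 (22.0%). The DNA replication-related element, bound by DREF, was at none (1.70%). GC content in the windows ran from 29.7% to 66.3% at EcR and from 25.7% to 51.5% at tai, with medians of 45.05% and 43.1% against 41.6% for all optimal summits.

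Genes that act with the receptor mostly had a peak as well. A summit within 1000 bp of a TSS was present at EcR, usp and tai, at 31.2% of all protein-coding genes, and at 16 of 20 genes for hormone import, receptor partners and coregulators. Some of these cannot be assigned to the listed gene alone. At rig, mor, alien and bon the strongest such summit was 229, 769, 165 and 608 bp from the gene's own start. Another gene's start was nearer, at 66, 384, 61 and 140 bp. Within the body and 5 kb, 18 of the 20 had a summit, with a median of 2.5 per gene against 1 over all genes; the median span was 12.9 kb against 2.17 kb. Within 1000 bp of a TSS the strongest was at Oatp74D, the importer of ecdysone into cells, with a signal of 1730.4 at 193 bp from its start and ranks of 38, 92 and 217. The CBP acetyltransferase gene nej followed at its start with 1194.3 at 6 bp and ranks of 202, 397 and 412. The chaperone gene Hsp83 had 598.3, but that summit was 15 bp from the start of CG14965 and 463 bp from its own. The histone demethylase gene Utx had 590.0 at 30 bp. More than 1000 bp from their own starts, but in the body or within 5 kb, brm reached 1386.8 and Mi-2 1052.9. The distance of these 2 summits from the starts of other genes was not determined. Neither trr nor Ncoa6, which act together in a histone methyltransferase complex that serves as an EcR coactivator, had a summit within 5 kb. Among other receptors that pair or compete with usp, the strongest peak within 1000 bp of a start had 162.9 at Hr38, 256.1 at svp and 218.7 at Hr78, all below the median of the list. The juvenile hormone receptor genes, whose products pair with tai, had 282.7 (Met) and 572.5 (gce) there. The gce summit was 569 bp from its own start and 223 bp from that of asRNA:CR44429.

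Of 18 genes listed for the response to the hormone, 16 had a summit in the body or within 5 kb. A summit within 1000 bp of a TSS was at 13 of them, and the median was 6.5 summits per gene. The shares over all protein-coding genes were 56.6% and 31.2%, with a median of 1 summit. The listed genes are also longer, with a median span of 27.9 kb against 2.17 kb. Of peaks within 1000 bp of a TSS, the 4 strongest were as follows. Sox14, a transcription factor gene of early metamorphosis, had 1503.6 at 308 bp from its start and ranks of 127, 165 and 158. E23, which encodes an ecdysone transporter of the ABC family, had 1406.2 at 254 bp and ranks of 254, 66 and 240. Kr-h1 and the nuclear receptor gene Hr3 followed within that distance with 911.3 and 754.6, the latter at 866 bp from its own start and 69 bp from that of lncRNA:CR45265. More than 1000 bp from their own starts, but in the body or within 5 kb, ftz-f1 reached 1579.5 and Eip75B 1454.5. Whether these 2 summits lay near the starts of other genes was not determined. Eip93F and Cyp18a1, the latter an enzyme that inactivates ecdysone, had none. By number of summits EcR and tai were above all 20 partner and coregulator genes, of which Smr, the corepressor of EcR, and Mi-2 had the most with 9 each. These counts were not adjusted for span, and EcR and tai, of 81.2 kb and 83.4 kb, are longer than all 20, of which the longest spans 58416 bp. Among the 18 genes listed for the response to the hormone, only Eip75B with 39 and Hr4 with 20 had more than EcR.

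**Figure D4:**
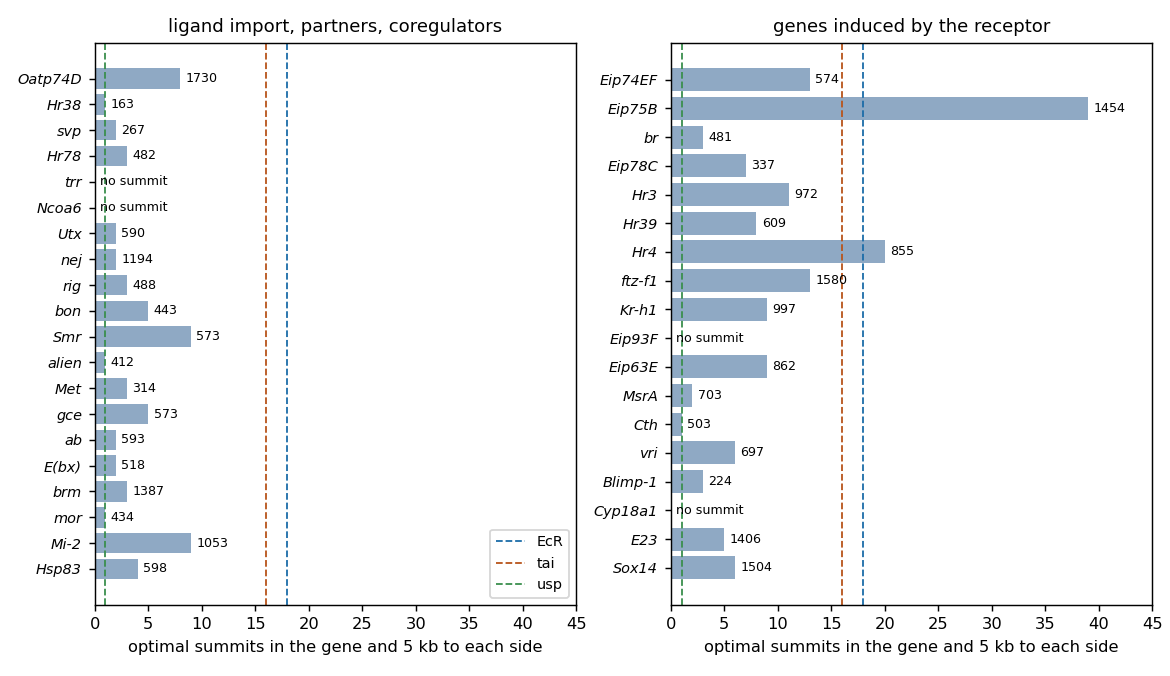
Number of optimal summits in each gene and 5 kb to each side (bars). The left panel has 20 genes of hormone import, receptor partners and coregulators. The right panel, titled as genes induced by the receptor, has the 18 genes listed for the response to the hormone. The number at each bar is the strongest signal there, in the authors' score. Dashed lines mark EcR at 18, tai at 16 and usp at 1, and only Eip75B and Hr4 pass the line of EcR. Counts are not adjusted for the span of the genes.

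The protein-coding genes most like the 3 in both number of summits and best signal were found by the smallest sum of differences in percentile over the 7894 genes with a summit. For EcR these were rdx with 20 summits and a best signal of 1163.1, NFAT with 16 and 1250.9 and hth with 17 and 1146.9. For tai they were CG14434 with 13 and 780.3, ND-15 with 12 and 794.4 and nmo with 10 and 795.2. For usp they were CG4325, whose only summit is the same one, fw with a signal of 180.9 and Adh with 181.1, each with 1 summit.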

How the data were processed

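Peak lists from 3 biological replicates, numbered as in the labels, were used on the dm6 build; reads, coverage and the dm3 lists were left unused. Regions were called by the authors for every replicate against a control and for the 3 together, per the deposited file lists, and the optimal list came from these through a reproducibility (IDR) step. The aligner, caller and thresholds were not given in the sources used here. Each deposited region has a signal, the authors' score on an unstated scale, and a −log10 q-value, which was 4.289 in all 9531 optimal peaks and so was not used to rank. Each of the other lists held 30000 regions, background included. Read depth is unknown, so no interval is given.

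Summits were placed 1-based on Ensembl release 115 genes, and all list ends lay within the release 6 chromosome lengths. The 13945 protein-coding genes were those on the 6 chromosomes of the lists. An optimal peak took the best rank of the regions it overlapped by at least 1 bp in a replicate. A percentile is the share of genes with a lower value. Genes named from the lists were the 4 with the strongest peak within 1000 bp of a TSS, plus others named after their values were seen. Symbols CSN2, Eip71CD and Eip55E were matched through synonyms to alien, MsrA and Cth. The genes and lists were chosen with earlier results of these data known. With 1 group no test was made, and counts stand beside those of all genes or peaks. Python 3.11.15, pandas 2.3.3 and numpy 2.4.6 were used, and counting, overlap and word search were tested on simulated data.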

Additional observations from a re-analysis of the deposited data

How the results depend on the processing

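The optimal summits of EcR and tai stayed within 1.5 times their counts of 18 and 16 with flanks of 0, 2 or 10 kb, with summits 300 bp or less from a stronger one dropped, and when required in all 3 replicates. In the 4766 strongest peaks they numbered 9 and 10, with usp at 0. In the pooled list they numbered 57, 55 and 9 (EcR, tai, usp), and with 50% of both regions shared in all 3 replicates 4, 7 and 0. With 1 replicate left out, peaks supported by both others gave 13 to 16 at EcR, 12 to 14 at tai and 0 to 1 at usp, whose peak was lost without replicate 1 or replicate 2. The usp count was 5 with flanks of 10 kb and 0 when required in all 3 replicates.

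Promoters with a summit numbered 2 for EcR in the strongest peaks and also when required in all replicates, and ranged from 2 to 4 with 1 replicate left out, the lowest without replicate 1. Those of tai kept their count of 2 in every setting. For usp they were 0 in the strongest peaks and in all replicates, 0 to 1 with 1 replicate left out, and 2 within 1000 bp or in the pooled list.

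The percentile of EcR by number was 80.3 per kb and 95.2 among genes of like span. That of tai was 74.0 and 92.9, and 99.6 with flanks of 10 kb, 99.8 in the strongest peaks and 99.6 to 99.8 with 1 replicate left out. That of usp was 80.1 in the gene body, 79.1 with 10 kb, 0 in the strongest peaks and 0 to 47.9 with 1 replicate left out. The EcR range on leaving 1 out was 99.7 to 99.9. The forkhead word was at 5 EcR and 6 tai summits within 25 bp (36.8% of all), at 14 and 12 within 100 bp (77.0%), and in its narrower form at 3 and 1. The causes were not tested. No paired analysis was possible because there is 1 group. Depth is unknown, so weak peaks such as that at usp cannot be given a detection limit.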
